A study of Mus musculus with 2 samples.

Results

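The 9 myeloid lineage transcription factors Spi1, Maf, Nr4a1, Nr1h3, Irf8, Irf4, Cebpb, Zeb2 and Klf4 were followed across the cells of a mouse thymus library sorted on CD64. They were taken by symbol from the 32285 gene rows of the library, and all 9 reached the minimum of 50 unique molecular identifiers (UMIs, each a counted transcript molecule) that gave 8814 tested genes. The study has a single group, the CD64+ cells of the thymus of adult C57BL/6 mice, with no treatment and no genetic change named in the labels. It is represented by a library of 2021 and a library of 2024, and the labels do not give the number of animals behind either. CD64 is the high-affinity IgG receptor encoded by Fcgr1.

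The 2021 library held 3214 barcodes and 8534578 UMIs, with a median of 2157.5 per barcode, and the 2024 library held 2815 barcodes and 24569270 UMIs, with a median of 5312. Gene names were used for the 2021 library alone, so every value of a factor comes from 1 library and no test or p-value is given. Intervals are exact 95% intervals, Poisson for levels and binomial for shares, and cover counting error only. Where a factor had 0 UMIs in a class, the level that 3 UMIs would give is printed as its limit. Of 3188 barcodes that passed the cell filter, 3185 were kept and fell into 20 clusters, of which 18 had at least 50 cells. Clusters were formed without the 9 factors and named from other markers, with "-like" added to each name. The labels call the cells macrophages, but 3 of the 18 classes had at least 8 of 12 macrophage markers raised and no other class had more than 1. In CPM, the UMIs of a gene scaled to an equal total of UMIs per class, Fcgr1 was 178 in iron-handling macrophage-like cells, 163 in macrophage-like, 83.0 in classical monocyte-like, 67.3 in serous-cavity macrophage-like and 31.7 in nonclassical monocyte-like cells. It was at most 12.2 CPM in the other 13 classes.

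Spi1 encodes PU.1, an ETS factor needed for myeloid and B cell development. Cebpb encodes a C/EBP factor of monocytes, macrophages and granulocytes, and Zeb2 a zinc-finger repressor active in myeloid and natural killer cells. Irf8 and Irf4 are related interferon regulatory factors that bind DNA together with partners such as PU.1. Irf8 is known for type 1 conventional dendritic cells (DCs), plasmacytoid DCs and monocytes, and Irf4 for type 2 conventional DCs. Nr4a1 is an orphan nuclear receptor needed for nonclassical monocytes and also an immediate early gene. Klf4 is a zinc-finger factor of monocytes and some DCs, Maf a leucine-zipper factor of tissue macrophages, and Nr1h3 the liver X receptor alpha, a sterol-sensing nuclear receptor.

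RefSeq promoter windows (GRCm38.p6) were available for 7 of the 9 factors. The 250 bases before the start are shown for 4 of them. Irf8 and Irf4 were chosen because they differ between the dendritic classes. Zeb2 was chosen as raised in 5 macrophage and monocyte classes, and Nr1h3 as raised in 3 of these. Capitals mark a match on either strand to TTGCNNAA (C/EBP) in Zeb2 and to CACCTG (ZEB) in Nr1h3. The windows are Irf8 at chr8:120736108-120736357 (+), Irf4 at chr13:30748983-30749232 (+), Zeb2 at chr2:45117443-45117692 (-) and Nr1h3 at chr2:91195117-91195366 (-).
Irf8: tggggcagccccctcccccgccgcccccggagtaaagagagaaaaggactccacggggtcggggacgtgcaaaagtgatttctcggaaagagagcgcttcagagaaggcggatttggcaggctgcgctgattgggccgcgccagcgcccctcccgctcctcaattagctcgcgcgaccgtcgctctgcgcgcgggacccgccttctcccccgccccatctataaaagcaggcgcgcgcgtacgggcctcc
Irf4: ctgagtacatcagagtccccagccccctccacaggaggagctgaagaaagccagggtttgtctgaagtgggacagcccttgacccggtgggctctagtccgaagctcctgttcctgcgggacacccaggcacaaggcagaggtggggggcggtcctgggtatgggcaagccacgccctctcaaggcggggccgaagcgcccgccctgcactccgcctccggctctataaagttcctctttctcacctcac
Zeb2: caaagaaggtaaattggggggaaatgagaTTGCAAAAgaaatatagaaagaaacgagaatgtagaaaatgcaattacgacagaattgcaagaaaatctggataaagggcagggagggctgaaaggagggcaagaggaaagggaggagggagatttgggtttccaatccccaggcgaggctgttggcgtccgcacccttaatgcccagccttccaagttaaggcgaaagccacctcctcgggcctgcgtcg
Nr1h3: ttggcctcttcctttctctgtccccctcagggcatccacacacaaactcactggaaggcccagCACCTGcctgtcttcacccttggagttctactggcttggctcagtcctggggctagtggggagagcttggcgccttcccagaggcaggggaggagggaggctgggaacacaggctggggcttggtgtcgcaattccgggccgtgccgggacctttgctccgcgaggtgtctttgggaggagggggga

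TTGCNNAA was found in 9.56% of all 32851 windows and CACCTG in 17.2%, so neither match is rare. Over the 12 windows of the 7 factors, TTGCNNAA was found in Zeb2, CACCTG in Irf8 (at its other start) and Nr1h3, and CCACCC (KLF) in Cebpb, Nr1h3 and Zeb2. CCACCC was found in 28.1% of all windows. GAGGAAGT (PU.1; 2.44% of all windows) and AAAGGTCA (NR4A1; 1.34%) matched none of the 12. The Irf8 window was 67.2% G and C, Irf4 and Zeb2 63.6% and 49.6%, and Nr1h3 63.2%, beside a median of 52.4% over all windows.

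In the GENCODE vM21 annotation of GRCm38, Spi1 (chr2:91082390-91115756, + strand) and Nr1h3 (chr2:91184061-91202834, - strand) lie 68304 bases apart, with the coding genes Mybpc3 and Madd between them. Their levels over the 18 classes had a Pearson correlation of 0.25 on the log2(CPM + 10) scale, and the nonclassical monocyte-like class was the single class in which both were raised. Cebpb and Zeb2 are also on chromosome 2, Maf and Irf8 on chromosome 8. Klf4 is on chromosome 4, Irf4 on 13 and Nr4a1 on 15. Zeb2 overlaps its antisense gene Zeb2os (261 UMIs in kept cells) and Cebpb overlaps Tmem189 (274 UMIs). Each of these genes has counts of its own, and whether counting used strand is not given in the sources used here.

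A factor was called raised in a class when its log2 ratio to the remaining kept cells reached 1 after adding 10 CPM to each level, and the class held 10 UMIs of it or more. It was called low at -1 or below where at least 10 UMIs were expected at the level of the other cells. Of the 162 combinations of factor and class, 22 (13.6%) were raised, beside 4.69% over all tested genes and classes. Of 144 that could be called low, 54 (37.5%) were, beside 16.8%. Since the factors were picked as myeloid factors, these shares describe them and were not tested. Of the 22 raised combinations, 12 stayed raised under every alternative processing in which the class was found again. Not every class was found each time: the type 1 DC-like class was found in 6 of the 12 alternatives and the macrophage-like class in 7.

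**Figure D1:**
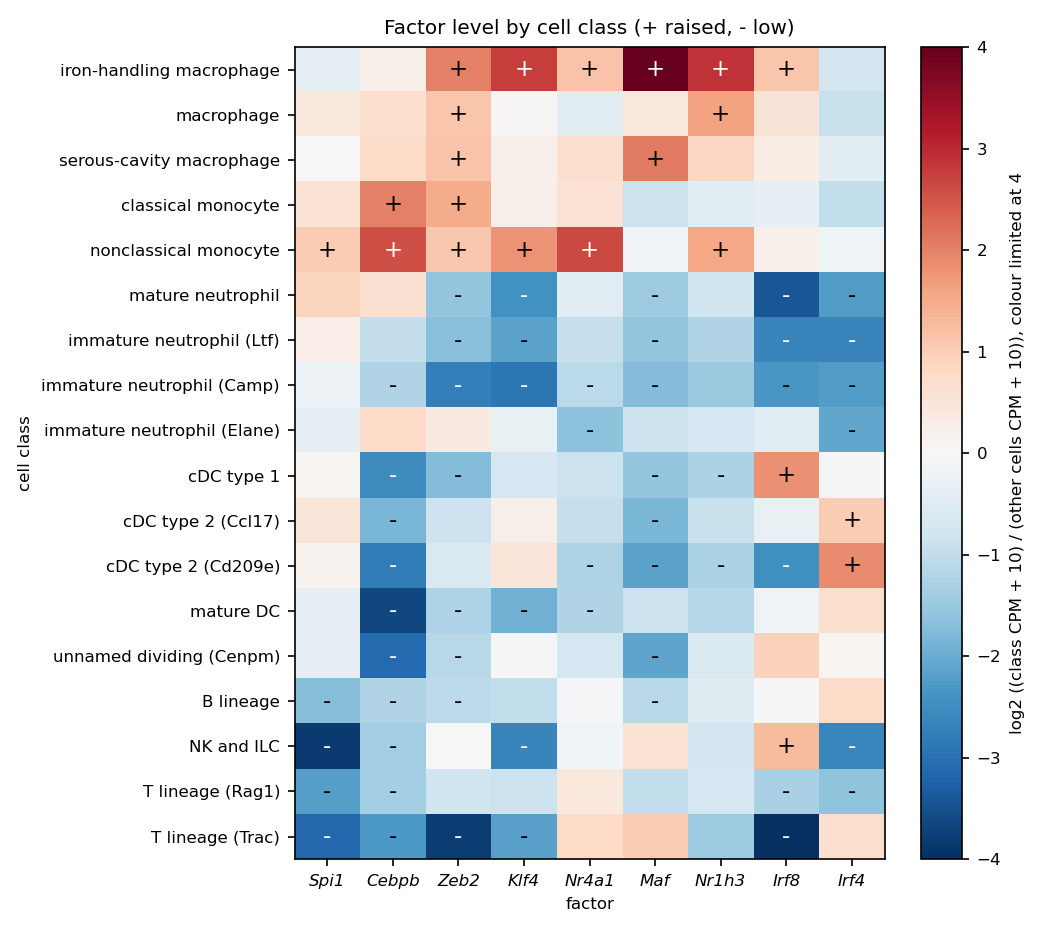
Log2 ratio of each factor (columns) in each class of at least 50 cells (rows) against all other kept cells, with 10 CPM added to both sides; + marks raised and - marks low combinations. Macrophage and monocyte classes hold 18 of the 22 raised combinations, and the neutrophil and dendritic classes hold most of the low ones.

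The iron-handling macrophage-like class (76 cells), named from markers such as Vcam1, Slc40a1 and Cd163, had as many raised factors as the nonclassical monocyte-like class and more than any other. Maf, Nr1h3, Klf4, Zeb2, Nr4a1 and Irf8 were raised, 6 of 9 beside 8.96% of the tested genes in this class. None of the 7 factors that could be called low was low, beside 8.05%. Maf stood at 511 CPM (118 UMIs, interval 423 to 612), 28.2 times the level of the other cells (22.0 to 36.1). It was next highest in serous-cavity macrophage-like cells, at 148 CPM (44 UMIs, 108 to 199), 3.45 times lower. The intervals of these 2 classes do not overlap each other, and in no other class did Maf exceed 73.4 CPM. Nr1h3 was 160 CPM (37 UMIs, 113 to 221), Zeb2 507 CPM (419 to 607) and Klf4 897 CPM (779 to 1027).

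Spi1 was not part of this pattern. At 329 CPM (76 UMIs, 259 to 412) it was lower in iron-handling macrophage-like cells than in any other macrophage, monocyte or dendritic class by point value, with a log2 ratio of -0.40. Its interval overlaps those of the serous-cavity macrophage-like cells (438 CPM) and the mature DC-like cells (348 CPM). It was 1.69 times higher in macrophage-like cells (1.31 to 2.19). The related ETS gene Spic, one of the markers that named the class, stood at 385 CPM there.

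Among 31 tested other myeloid and dendritic factors, 8 were raised and 1 was low in the iron-handling class. Those leading by log2 ratio included Spic and Klf6, the latter at 1304 CPM. Of 9 liver X receptor target genes, 6 were raised, led by Abca1 (407 CPM), a cholesterol exporter, Apoe (17689 CPM) and Apoc1 (1295 CPM), both apolipoproteins. The median log2 ratio of these 9 genes was 1.93, beside 0.12 over all tested genes. In the macrophage-like class 4 of the 9 were raised (median 0.80), beside 4.52%, and in the serous-cavity class 4 of 9 (median 0.86), beside 3.07%. Apoe was among the raised macrophage markers of both classes. In nonclassical monocyte-like cells, where Nr1h3 was also raised, 0 of 9 were (median -0.24), beside 4.53%.

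The iron-handling class also had the highest level of immediate early genes, which are induced within minutes of stimulation or tissue dissociation. Summed over 14 such genes it was 26264 CPM, beside 1166 to 10525 CPM in the other 17 classes, and 11 of the 14 were raised, led by Fosb, Egr1 and Hspa1a. In cells thinned to 2000 UMIs each, the 28 iron-handling cells with a Klf4 UMI had a median of 55.5 UMIs of these genes and the 21 without had 34. For Nr4a1 the medians were 47 (27 cells) and 38.5 (22 cells). Medians were also higher in cells with the factor for Irf8 (59 and 37), Cebpb (53 and 34), Maf (50 and 39) and Zeb2 (49 and 38.5). The means of these and of Klf4 and Nr4a1 went the same way. For Nr1h3 (11 and 38 cells) the medians were 50 and 42, but the means were 52.3 and 56.8. For Spi1 (22 and 27 cells) the medians were 45.5 and 43, but the means were 54.0 and 57.3. Of the 9 nonclassical monocyte markers 3 were raised in the iron-handling class (Treml4, Adgre4 and Fabp4), with a summed level of 871 CPM beside 3282 CPM in the nonclassical class. The calls of Nr4a1 and Irf8 in the iron-handling class, with log2 ratios of 1.14 and 1.11, were lost under 3 and 2 of 10 alternatives. The part of this response in the levels of the factors was not tested.

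**Figure D2:**
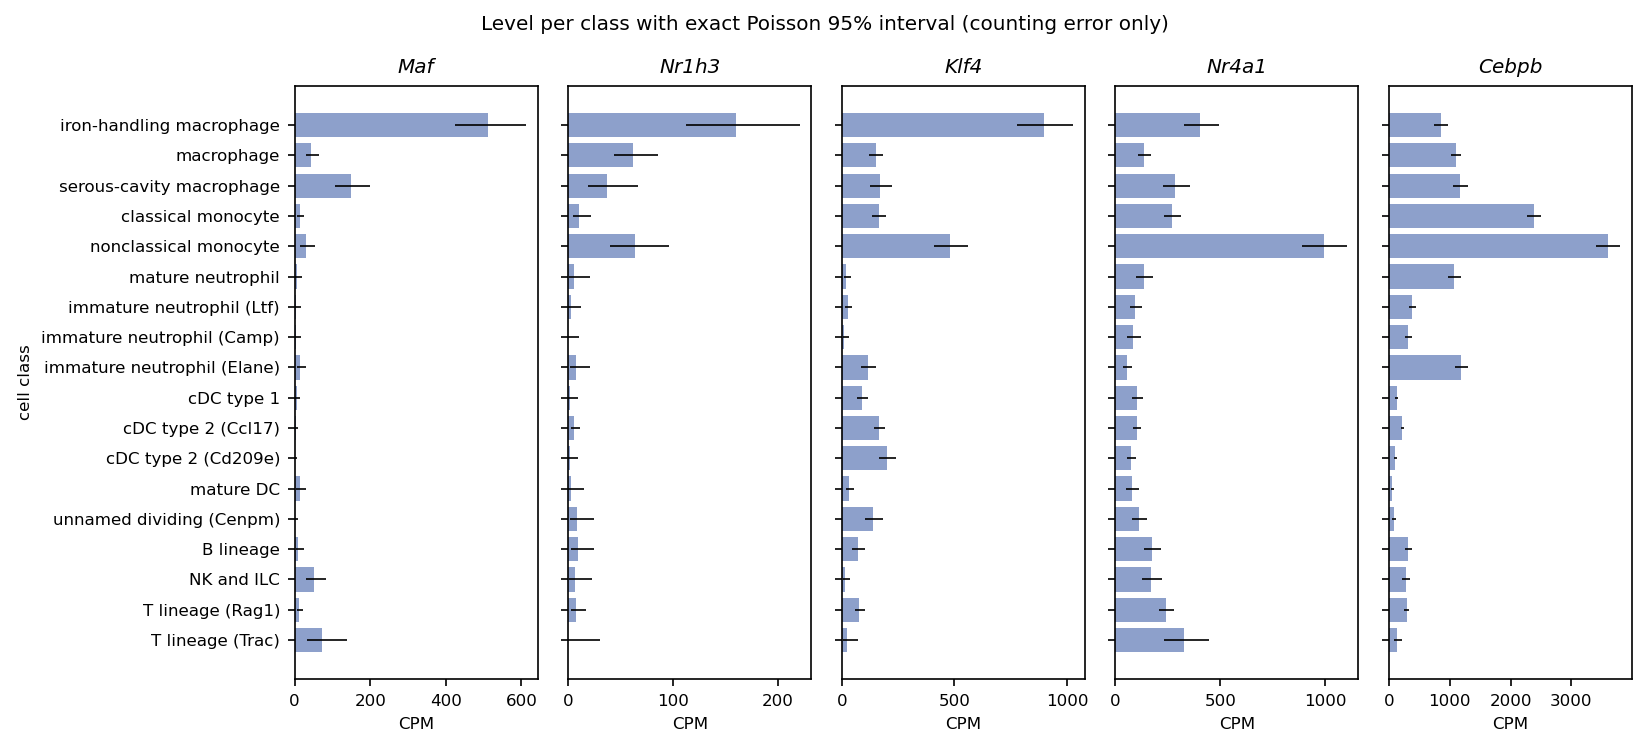
Levels of 5 factors (CPM, linear axes from 0) in each class, with exact Poisson 95% intervals as lines. Maf, Nr1h3 and Klf4 are highest in iron-handling macrophage-like cells, and Nr4a1 and Cebpb in nonclassical monocyte-like cells.

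The other macrophage classes shared part of this combination. In the macrophage-like class (187 cells, led by Ccl12, Cfb and Cxcl9), Nr1h3 (62.1 CPM, 44.0 to 85.3) and Zeb2 (265 CPM, 226 to 309) were raised, 2 of 9 beside 4.52%. None of 8 was low, beside 6.55%. In the serous-cavity macrophage-like class (125 cells, led by Saa3, Pf4 and Retnla), Maf and Zeb2 (279 CPM, 223 to 346) were raised, 2 of 9 beside 3.07%, and none of 7 was low, beside 5.37%. For Zeb2 the ratio of the serous-cavity to the macrophage-like level was 1.06 (0.80 to 1.38), an interval that includes 1, while Maf was 3.36 times higher in the serous-cavity class (2.03 to 5.64). In the macrophage-like class 4 of 9 classical monocyte markers were also raised (summed level 5222 CPM, beside 7761 CPM in the classical class), and their part in these levels was not tested. The serous-cavity class also had 7 of 8 iron-handling markers raised, as many as the iron-handling class itself, at a summed level of 1141 CPM beside 5721 CPM there, and their part in its Maf level was not tested. Zeb2 was no longer raised in either class with median-of-ratios scaling, with the mean of the cells' own CPM, or with 50 CPM added.

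Nonclassical monocyte-like cells (186 cells; Ace, Treml4) had 6 raised factors, Nr4a1, Cebpb, Klf4, Nr1h3, Zeb2 and Spi1, beside 4.53% of tested genes. None of 8 was low, beside 8.34%. Nr4a1 reached 992 CPM (344 UMIs, 890 to 1103), its highest level and 2.46 times that of the iron-handling class. Cebpb reached 3602 CPM (1249 UMIs, 3405 to 3808), also its highest level. Klf4 was 482 CPM (411 to 561). Spi1 was 854 CPM (759 to 957), highest of all classes, but its interval overlaps that of mature neutrophil-like cells (788 CPM, 697 to 886). The log2 ratio of Spi1 was 1.02 and fell below 1 under 5 of 10 alternatives. Zeb2 was no longer raised under 3 of the 10, and Nr1h3 under 1, with 50 CPM added. The summed immediate early level was 8001 CPM here. Thinned nonclassical cells with an Nr4a1 UMI had a median of 17 UMIs of these genes (33 cells) and those without had 13 (19 cells), and for Klf4 both medians were 14. The part of the early response in the Nr4a1 level was not tested.

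Classical monocyte-like cells (279 cells; F13a1, Lyz2) had 2 raised factors, Cebpb at 2383 CPM (1580 UMIs, 2267 to 2504) and Zeb2 at 330 CPM (288 to 377), beside 2.05%. None of 9 was low, beside 8.85%. Against them, nonclassical monocyte-like cells had 3.67 times more Nr4a1 (3.06 to 4.43), 2.93 times more Klf4 (2.29 to 3.76) and 6.01 times more Nr1h3 (2.48 to 16.7). The difference in Cebpb was smaller, 1.51 times (1.40 to 1.63). For Zeb2 the interval of the ratio included 1 (0.82, 0.64 to 1.05). Irf5 and Nfil3 were the 2 raised genes among the 31 tested other factors in classical cells, where 5 were low. Bcl6, Klf2 and Tfeb were the 3 raised in nonclassical cells, where 1 was low.

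**Figure D3:**
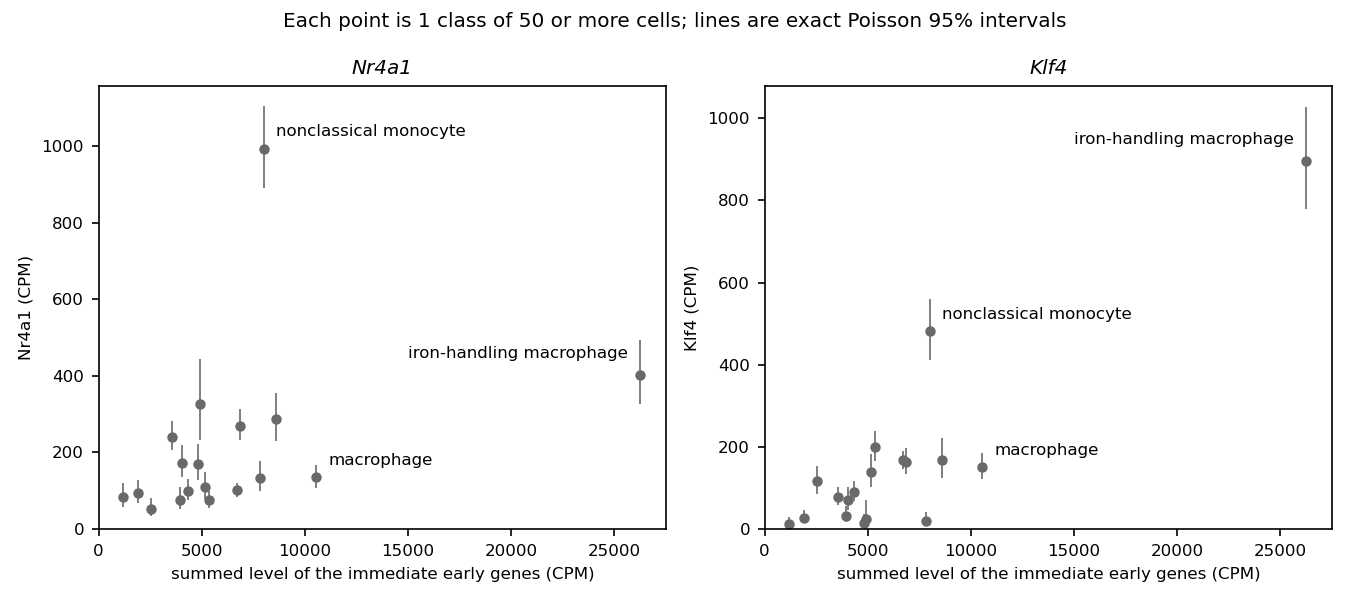
Nr4a1 (left) and Klf4 (right) level against the summed level of 14 immediate early genes, each point 1 class, with exact Poisson 95% intervals. The iron-handling macrophage-like class is far to the right in both, and the nonclassical monocyte-like class is high in Nr4a1 at a summed level of 8001 CPM.

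Spi1 was called low in none of the 4 neutrophil-like classes. In mature neutrophil-like cells (246 cells; Retnlg, Cxcr2), no factor was raised, beside 7.01%, and Maf, Irf8, Irf4, Zeb2 and Klf4 were low, 5 of 8 beside 45.3%. Irf8 was 8.56 CPM (3 UMIs, 1.77 to 25.0). The Ltf class of immature neutrophil-like cells (185 cells) had the same 5 low factors of 8, beside 45.7%, and none raised, beside 5.74%. The 2 classes share markers. The Ltf class had 8 of 10 mature neutrophil markers raised, at a summed 393110 CPM beside 358830 CPM in the mature class. The mature class had 4 of 9 immature markers raised, at 28883 CPM beside 102166 CPM in the Ltf class. The part of this overlap in the factor levels was not tested. In the dividing Camp class (56 cells), 7 of 8 were low, beside 40.1%, with none raised, beside 3.04%. Low calls were frequent among all genes in these 3 classes. With median-of-ratios scaling, which moved the median of all genes by 0.38 to 0.44 (log2) there, Spi1 became raised in the mature and Ltf classes and Cebpb in the mature class.

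The Elane class (68 cells) was a mixture. It had Nr4a1 and Irf4 low, 2 of 8 beside 14.5%, and none raised, beside 2.89%, but 13 of its cells held over 50 UMIs each of the granule genes Elane, Mpo, Prtn3 and Ctsg. In those 13 cells Cebpb was 576 CPM (454 to 720) and in the other 55 it was 1471 (1336 to 1617). Zeb2 was 37.4 CPM (12.1 to 87.3) and 220 (170 to 281), and Irf8 37.4 (12.1 to 87.3) and 176 (132 to 231). The intervals of these factors do not overlap between the parts. The class also had 3 of 9 classical monocyte markers raised (Ly6c2, Vcan and F13a1; summed level 5344 CPM, beside 7761 CPM in the classical class), 2 of 6 basophil and mast cell, 1 of 7 plasma cell and 1 of 6 eosinophil markers. Their part in these levels was not tested, and this split was chosen after the values were seen.

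The dendritic classes differed in Irf8 and Irf4, and Cebpb ranged from 50.5 CPM in mature DC-like cells to 221 CPM in the Ccl17 class. Of the UMIs of Irf4 and Irf8 together, Irf4 made up 86.4% (78.9 to 92.0) in the Cd209e class, 38.1% (32.7 to 43.8) in the Ccl17 class, 33.3% (23.7 to 44.1) in mature DC-like cells and 7.67% (5.16 to 10.9) in type 1 DC-like cells. The same transcripts are compared between classes here, so differences in capture between the genes do not enter the order. The share in the Cd209e class rests on its low Irf8 level. When cells were clustered again, the log2 ratio of Irf8 in the matched cluster was 0.06 without a cell filter and 0.11 with doublets kept. The share was not computed under those settings.

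Type 1 DC-like cells (164 cells; Xcr1) had Irf8 raised at 565 CPM (337 UMIs, 507 to 629), its highest level, 1 of 9 factors beside 0.851%. Maf, Nr1h3, Cebpb and Zeb2 were low, 4 of 9 beside 10.9%. In cells thinned to 2000 UMIs, none of the 64 with an Irf8 UMI had an Irf4 UMI (0%, up to 5.60%), and 12 of the 78 without Irf8 did (15.4%, 8.21 to 25.3). The class was therefore split, after its values were seen, by UMIs of type 1 markers other than Naaa. In the 51 cells with 3 or more, Irf8 was 900 CPM (780 to 1032) and Irf4 4.43 CPM (1 UMI). In the other 113, Irf8 was 362 CPM (303 to 428) and Irf4 72.9 CPM (48.0 to 106). The summed level of type 1 markers was 1055 CPM in the 51 cells and 227 CPM in the 113, and that of type 2 markers was 394 and 645 CPM. The difference in type 1 markers follows from the split itself, so it cannot show which cells gave the class its name. Marker-carrying cells were also deeper, with a median of 4564 UMIs against 3289. Batf3 and Id2, both needed for type 1 DCs, were the 2 raised genes among the 31 tested other factors, of which 7 were low.

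**Figure D4:**
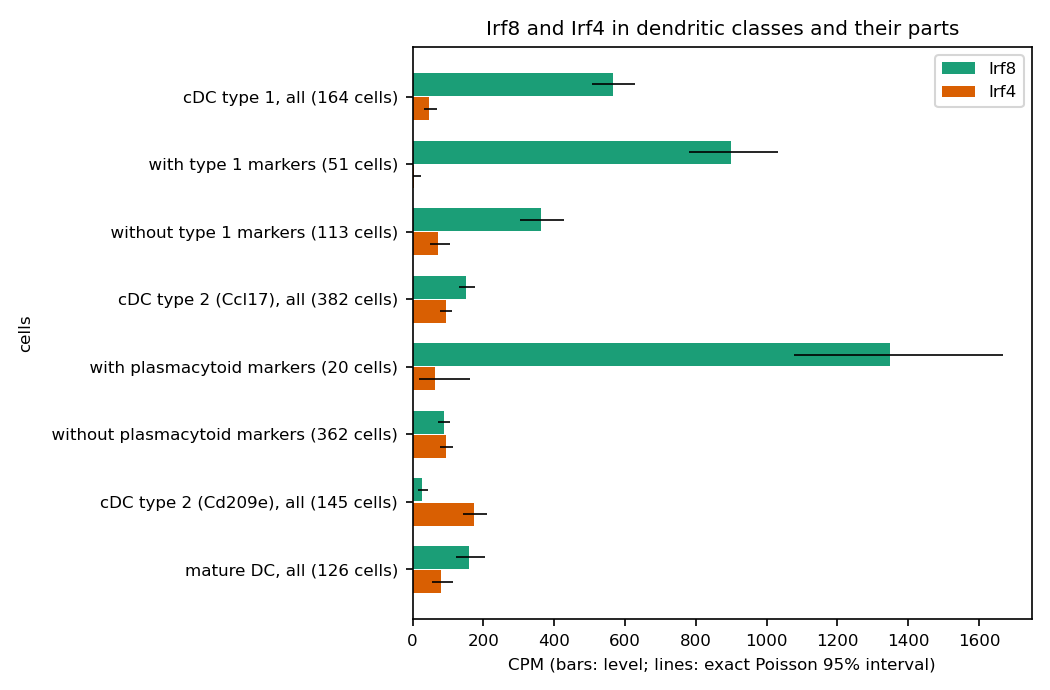
Irf8 and Irf4 levels (CPM, bars) in the dendritic classes and in parts of 2 of them, with exact Poisson 95% intervals. Irf8 is 1348 CPM in the 20 cells with plasmacytoid markers and 88.4 CPM in the other 362 cells of the same class.

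The Ccl17 class of type 2 DC-like cells (382 cells; Cd209a, Mgl2) had Irf4 raised at 93.5 CPM (117 UMIs, 77.3 to 112), 1 of 9 beside 0.953%. Maf and Cebpb were low, 2 of 9 beside 7.34%. Its leading genes included Siglech and Cox6a2, markers of plasmacytoid DCs, and 20 of its cells held 3 or more UMIs of such markers other than Bst2. Those 20 cells held 85 of its 190 Irf8 UMIs, a level of 1348 CPM (1076 to 1666), against 88.4 CPM (72.3 to 107) in the other 362. In the Cd209e class 13 cells passed the same cut of 3 UMIs, and they had 0 Irf8 UMIs. Their summed level of plasmacytoid markers was lower, 1344 CPM against 5232 CPM in the 20 cells. Their level of type 2 markers was higher, 2805 CPM against 1363 CPM. Without the 20 cells of the Ccl17 class Irf4 made up 51.8% (45.0 to 58.6) of the UMIs of both factors, and its level was 95.1 CPM. The call of Irf4 in this class was at the threshold, with a log2 ratio of 1.01, and was lost under 5 of 8 alternatives. Without the 20 cells Irf8 was also low, just at the threshold.

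In the Cd209e class (145 cells; Cd209e, Cd209d, Mgl2), Irf4 was raised at 174 CPM (102 UMIs, 142 to 211), 1 of 9 beside 2.16%, and was 1.86 times the Ccl17 level (1.41 to 2.44). Maf, Nr4a1, Nr1h3, Irf8 and Cebpb were low, 5 of 9 beside 11.9%. Irf8 was 27.2 CPM (16 UMIs, 15.6 to 44.2). Its log2 ratio of -2.45 turned to 0.06 when cells were clustered again with no cell filter. It turned to 0.11 when they were clustered again with the 3 called doublets kept. Both values belong to the cluster matched to this class by shared cells, which need not hold the same cells. Maf had 0 UMIs, with a limit of 5.11 CPM at 3 UMIs. Klf4 was 199 CPM (165 to 239), its highest point value in a dendritic class, with an interval that overlaps that of the Ccl17 class (167 CPM, 145 to 191). Tcf4, Nr4a3, Rxra and Runx1 were the 4 raised genes among the 31 tested other factors, of which 7 were low.

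Mature DC-like cells (126 cells; Ccr7, Fscn1) had no raised factor, beside 5.30%, and Nr4a1, Cebpb, Zeb2 and Klf4 low, 4 of 8 beside 23.0%. Cebpb was 50.5 CPM (19 UMIs, 30.4 to 78.9), the lowest of all classes. Spi1 was 348 CPM and Irf4 79.7 CPM (53.8 to 114). Although Nr4a1 was low, its relative Nr4a3 was raised at 298 CPM. Of the 31 tested other factors 7 were raised, led by Relb (566 CPM), Nr4a3 and Bhlhe40 (348 CPM), and 5 were low. The unnamed dividing class (54 cells; Cenpm, Birc5) had none raised, beside 3.51%, and Maf, Cebpb and Zeb2 low, 3 of 8 beside 14.0%. It too was mixed: its 20 cells with type 1 DC markers had Irf8 at 640 CPM (525 to 773), and the other 34 had 77.3 (43.3 to 127).

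The 4 lymphoid classes all had Spi1 and Cebpb low, except that the log2 ratio of Cebpb in the Rag1 class turned to 0.08 when the factors were allowed in the clustering. Natural killer and innate lymphoid-like cells (295 cells; Ncr1, Gzma) had Irf8 raised at 427 CPM (135 UMIs, 358 to 505), 1 of 9 beside 5.11%. Spi1, Irf4, Cebpb and Klf4 were low, 4 of 7 beside 19.1%. Spi1 was 22.1 CPM (7 UMIs, 8.89 to 45.6), its lowest level, and Irf4 had 0 UMIs, with a limit of 9.48 CPM at 3 UMIs. Irf8 was 433 CPM (355 to 524) in the 244 of these cells with under 10 UMIs of the genes counted as myeloid. Those genes were Lyz2, Csf1r, Tyrobp, Cst3, C1qa and C1qb. The other 51 cells held 4 of the 7 Spi1 UMIs. Whether this count marks myeloid RNA in this class was not tested. Thinned to 2000 UMIs, which 8 of the 295 cells reached, Irf8 lost its call because fewer than 10 of its UMIs were left. Its log2 ratio stayed above 1, with a lowest value of 1.05 over 11 alternatives. The log2 ratio of Klf4 turned to 0.29 in the thinned cells.

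B lineage-like cells (204 cells; Cd79a, Ebf1) had none raised, beside 2.95%, and Spi1, Maf, Cebpb and Zeb2 low, 4 of 8 beside 15.9%. Spi1 was 132 CPM (54 UMIs, 99.1 to 172) and was 108 CPM (75.4 to 150) without the 20 cells with 10 or more myeloid UMIs. Irf4 was 87.9 CPM (61.6 to 122), which overlaps the Ccl17 level.

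The Rag1 class of T lineage-like cells (290 cells) had none raised, beside 17.7%, and Spi1, Irf8, Irf4 and Cebpb low, 4 of 9 beside 14.3%. Its 34 cells with 10 or more myeloid UMIs held 56 of its 63 Spi1 UMIs, 42 of 49 Irf8 UMIs and 44 of 49 Zeb2 UMIs. Without them Spi1 was 14.4 CPM (5.81 to 29.8) in place of 92.6, and Maf, Zeb2 and Klf4 were low as well. Nr4a1, which T cells induce on receptor signalling, was 241 CPM and stayed at 215 CPM (175 to 260). In the Trac class (96 cells) none was raised, beside 4.04%, and Spi1, Irf8, Cebpb, Zeb2 and Klf4 were low, 5 of 6 beside 19.4%. Irf8 and Zeb2 had 0 UMIs there, with a limit of 24.5 CPM at 3 UMIs for each. Nr4a1 was 326 CPM (233 to 444), and its interval overlaps that of the iron-handling class.

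Of the 18 classes, 14 had Spi1 between 329 and 854 CPM, and the 4 lymphoid classes lay below them at 22.1 to 132 CPM, with no overlap of intervals between the groups. After the nonclassical monocyte-like and mature neutrophil-like cells came classical monocyte-like (612 CPM, 554 to 675), Ccl17 (574, 533 to 617), macrophage-like (556, 498 to 618) and Ltf neutrophil-like cells (524, 460 to 595), whose intervals overlap one another.

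Cebpb ranged from 50.5 CPM in mature DC-like to 3602 CPM in nonclassical monocyte-like cells. Below both monocyte classes, the Elane (1192 CPM, 1091 to 1300), serous-cavity (1165, 1045 to 1294), macrophage-like (1095, 1014 to 1181) and mature neutrophil-like classes (1073, 967 to 1187) had overlapping intervals. The iron-handling class had 849 CPM (734 to 976), an interval that overlaps that of the mature neutrophil-like class alone among these. Ltf and Camp neutrophil-like cells had 378 CPM (324 to 439) and 317 CPM (260 to 382), less than the class named mature, whose markers overlap with theirs.

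For Zeb2, the 4 classes after the iron-handling one had overlapping intervals, from 330 CPM in classical monocyte-like to 265 CPM in macrophage-like cells. Natural killer and innate lymphoid-like cells had 126 CPM (90.3 to 172) and were the highest lymphoid class. Their cells with under 10 UMIs of the genes counted as myeloid had 101 CPM (65.5 to 149). Whether that count marks myeloid RNA in this class was not tested. Among dendritic classes Zeb2 was 81.7 CPM (60.3 to 108) in the Cd209e and 72.7 CPM (58.6 to 89.3) in the Ccl17 class, and lower in the type 1 class at 33.6 CPM (20.5 to 51.8).

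For Klf4, the Cd209e, serous-cavity, Ccl17, classical monocyte-like and macrophage-like classes followed the iron-handling and nonclassical classes at 199 to 150 CPM, with overlapping intervals. A single iron-handling cell held 27 of the 207 Klf4 UMIs of its class. Type 1 DC-like cells had 90.6 CPM (68.1 to 118) and mature DC-like cells 31.9 CPM (16.5 to 55.7). For Nr4a1, the iron-handling, Trac, serous-cavity and classical monocyte-like classes lay between 403 and 270 CPM, and intervals of neighbours in this order overlap. The lowest was the Elane class at 53.7 CPM (34.0 to 80.5).

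Maf and Nr1h3 had few UMIs in most classes. Apart from the raised classes, Maf had at most 27 UMIs in a class (macrophage-like, 44.1 CPM, 29.1 to 64.2), and its interval there overlaps those of the Trac (73.4 CPM) and natural killer-like classes (50.6 CPM). Nr1h3 was next highest after the iron-handling class in nonclassical monocyte-like cells (63.5 CPM, 22 UMIs, 39.8 to 96.1) and macrophage-like cells (62.1 CPM, 38 UMIs), which cannot be ordered at this depth. Serous-cavity macrophage-like cells had 37.0 CPM (11 UMIs, 18.5 to 66.3), which overlaps both. The other 14 classes had 0 to 7 UMIs of Nr1h3 each.

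Detection of several factors in the same cell was read in the 1746 cells with at least 2000 UMIs, thinned to that number, and 1439 shallower cells were left out. Of these cells, 55.9% (53.5 to 58.2) had UMIs of 2 or more factors. Free RNA and doublets can add to such shares. For comparison, Cebpb was detected in 25.5% (17.4 to 35.1) and Spi1 in 14.7% (8.47 to 23.1) of the 102 thinned Rag1 cells, T lineage-like cells in which both were low. In 181 classical monocyte-like cells at the same depth the shares were 95.6% and 69.1%. The Rag1 figures are not a clean background. Before thinning, 34 cells of that class with 10 or more myeloid UMIs held 56 of its 63 Spi1 and 136 of its 198 Cebpb UMIs. The mean number of factors per cell was 4.22 in iron-handling macrophage-like, 3.73 in nonclassical and 2.92 in classical monocyte-like cells, and 1.20 in Ltf neutrophil-like cells, beside 1.14 in the Rag1 class. In iron-handling cells Klf4 was detected in 60.7% of Maf-positive cells (17 of 28, 40.6 to 78.5) and 52.4% of Maf-negative cells (11 of 21, 29.8 to 74.3). In serous-cavity macrophage-like cells, Zeb2 was detected in 56.1% of cells with Cebpb (23 of 41, 39.7 to 71.5) and 8.33% of those without (2 of 24, 1.03 to 27.0). These intervals do not overlap, but the pair is an example, and how many pairs separate is not given. In this class cells with Cebpb had a median of 23 immediate early UMIs and those without had 12. For Zeb2 the medians were 27 and 12.5. The part of the early genes in this co-detection was not tested. In the Ccl17 class, Irf8 was detected in 8 of 57 Irf4-positive cells (6.26 to 25.8%) and 43 of 286 Irf4-negative cells (11.1 to 19.7%), which overlap. These figures pool the cells of a class and follow any mixture within it.

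For each factor, the genes whose level over the 18 classes was most like it were named by Pearson correlation of log2(CPM + 10), as a description. All classes come from 1 library. For Spi1 they were Ifitm2 (0.94), Csf2ra (0.93) and Nfam1 (0.91), and for Maf Pld3 (0.94), Tpp1 (0.90) and Glul (0.89). For Nr4a1 they were Abi3, Bbc3 and Mbp (0.87 to 0.85), and for Nr1h3 they included Slc7a8 (0.92) and Itgb5 (0.92). For Irf8 they were Polr3d, Rab18 and Dnpep (0.88 to 0.84), and for Irf4 Dpp4 (0.90), Gpr183 (0.87) and Btla (0.87). For Cebpb they included Smpdl3a (0.92) and Emilin2 (0.88), and for Zeb2 Usp8 (0.92), Arhgap17 (0.91) and the overlapping Zeb2os (0.90). For Klf4 they were Pde4dip, Nrros and Clec4b1 (0.93 to 0.90). Among the factors themselves, Nr1h3 and Zeb2 were most alike (0.80), followed by Nr1h3 and Klf4 (0.76) and Zeb2 and Klf4 (0.75). Irf4 and Cebpb were least alike (-0.41).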

How the data were processed

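Cells of the thymus were digested, sorted on CD64 and sequenced with 10x Genomics 3′ chemistry, per the labels' protocols. The deposited matrices hold unnormalized UMI counts for every gene and barcode, made by the authors with Cell Ranger 6.0.0 (2021) and 8.0.0 (2024), per the file headers, on build mm10, per the submitters' processing notes. The 2024 counts (33696 gene rows) were used for depth only, and barcodes shared by the libraries were not counted.

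Barcodes with at least 500 UMIs, 300 genes and at most 10% mitochondrial UMIs were kept. Scrublet (scanpy 1.11.5) marked 3 barcodes as doublets, and these were dropped. Against an expected rate of 6% this is very few, so most doublets probably remain. Counts scaled to 10000 per cell, 2000 variable genes without the 9 factors, 30 components and 15 neighbours gave Leiden clusters (igraph 0.11.9, resolution 1). A class name needed 3 raised markers. Values were computed in Python 3.11.15 with pandas 2.3.3, numpy 2.4.6 and, for exact intervals, scipy 1.17.1. The factors, marker lists and gene lists were chosen with earlier results of these data known, and the splits of mixed classes after their values were seen. All 9 factors are named, with the 3 most alike genes each and, from a list, the 3 with the highest log2 ratio, or all raised genes where few. Some genes that these rules name are not reported here.

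The rules were tested on Poisson counts simulated without mixed classes, with 200 genes changed. These were drawn from genes with at least 10 UMIs expected in the class. In the iron-handling class Maf and Nr1h3 lie below that, so the simulation does not cover their raised calls. A 4-fold rise was recovered for 98.5% of the changed genes in a class of the size of the Ccl17 class (8806 genes) and 100% for the iron-handling class (8806 genes). A drop to 0.25 of the level was recovered for 56.0% (7922 genes) and 88.0% (2625 genes). With 10 CPM added, a 4-fold drop cannot be called low where the other cells are below 20 CPM. All changed genes of the iron-handling simulation were above that level. This limit touches 5 of the 144 combinations, all of Nr1h3.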

Additional observations from a re-analysis of the deposited data

How the results depend on the processing

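No paired analysis was possible because gene-level values come from 1 library. The 22 raised and 54 low combinations were recounted under 12 alternatives, over the classes found again by shared cells (Jaccard index of at least 0.5). With 50 CPM added, 13 were raised and 33 low. At clustering resolution 0.5, 6 were raised over 9 classes, which had 5 before, and with a stricter cell filter 28 were low over 9 classes, which had 25. Classes taken from the marker UMIs of each cell were matched for 4 of 18 and gave 1 raised and 19 low, beside 1 and 16 before. Other counts were within 1.5 times. Of the 22 raised combinations 12, and of the 54 low 20, kept their call in every alternative that found the class again. Some calls were lost under thinning to the count minimums alone. The log2 ratio stayed at or below -1.81 for Spi1 in natural killer-like cells and at or below -2.23 for Irf8 in the Trac class. Other calls were lost by the ratio itself, such as Irf4 in the Ccl17 class (lowest 0.65). The type 1 DC-like class was found in 6 of the 12 alternatives, and the macrophage-like, serous-cavity, dividing and Elane classes in 7 each. When cells were clustered again, the type 1 DC-like class was found only with doublets kept. Its calls were thus compared mostly over the same cells. Of 740 single log2 ratios, 650 moved by at most 0.5 of the width of their counting interval, 86 by more, and 4 reversed. For combinations with 0 UMIs the width used was very large, so their ratios could hardly count as moved. Klf4 reversed in natural killer-like cells thinned to 2000 UMIs (0.29, 8 cells). The other reversals came with cells clustered again. These were Irf8 in the Cd209e class with no cell filter (0.0565) or doublets kept (0.11), and Cebpb in the Rag1 class with the factors allowed in clustering (0.0804). Median-of-ratios scaling moved the median of all genes by -0.38 (Rag1 class) to 0.44 (Camp class) and kept 15 of the 22 raised. Of the 27 most alike genes, 20 were named again with a minimum of 200 UMIs and 7 by Spearman correlation. Thinning to 1000 UMIs left 35.5% of cells with UMIs of 2 or more factors. With 1 library, variation between animals is unknown, and depth limits Maf, Nr1h3 and Irf4 most.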
